A study of Arabidopsis thaliana with 9 samples.

Results

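The genes described here are 36 histone genes of Arabidopsis thaliana, of 33302 features in the deposited table. They were taken by locus from a list of 12 H2A, 8 H2B, 8 H4, 4 H3.1 and 3 linker H1 genes and the gene of CENH3. RNA came from leaves of 21-day-old plants of the Columbia-0 background, grown in soil at 23 degrees C with 16 h of light and 8 h of dark. In every plant an extra copy of HTR5 (AT4G40040), a gene of histone H3.3, had been inserted, unmutated in the group called WT and with methionine in place of lysine 36 in the group called K36M. There were 2 libraries per group, given in the labels as biological replicates. The labels give neither the promoter of the inserted gene nor the zygosity of the K36M plants used for RNA. Mutation and insertion event cannot be told apart from these libraries. The comparison addresses whether histone transcripts differ with the mutated copy.

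DNA in the nucleus is wound around octamers of the core histones H2A, H2B, H3 and H4, and linker histone H1 binds where DNA enters and leaves. Canonical H2A, H2B, H4 and H3.1 are supplied mainly in S phase, when new DNA has to be packed, and are called replication-dependent. Variants such as H2A.Z, H2A.X, H2A.W and the centromere histone CENH3 mark particular regions or tasks, and H3.3 is deposited outside replication as well. Plant histone transcripts carry poly(A) tails, so a poly(A) library captures them. The H4 genes of Arabidopsis encode the same protein and the H3.1 genes do so too, so reads can fit several copies. How the authors counted such reads is not given in the sources used here, and the split of a family's signal over its single genes is uncertain.

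All 36 genes had a mean of at least 1 FPKM (fragments counted on a gene per kilobase of its length, scaled to the library) and entered the test, among 17738 features. None was called higher or lower in K36M by limma at an adjusted p under 0.05, where 0.0282% of all tested features were called higher and 0.0113% lower. At an unadjusted p under 0.05 there was 1 member of 36, the H2B gene AT3G53650, against 4.12% of all tested features. Replication-dependent and variant genes had nearly the same median log2 fold change, 0.43 over 24 genes and 0.41 over 9 genes, and the 3 linker genes had 0.08. The median over all tested features was -0.05. A value above 0 was seen for 33 of the 36 histone genes, and for 45.6% of all tested features. In 5 of the 36 both K36M libraries lay above both WT libraries, as they did in 12.1% of all tested features. None of the 36 lay below both WT libraries, as 19.3% of all tested features did. Fold changes here are differences between group means of log2(FPKM + 1), so changes of genes at few FPKM come out smaller than they are. The labels give no pairing of the libraries, so differences between same-numbered libraries, here and below, match them by number only. On the log2(FPKM + 1) scale K36M was, between replicate 1 libraries, at least 2-fold higher for 6 of the 36 genes and at least 2-fold lower for 1, where 10.6% and 13.8% of all tested features were. Between replicate 2 libraries it was at least 2-fold higher for 3 genes and lower for none, against 7.8% and 4.37%.

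The count above 0 rested on WT replicate 1 and on K36M replicate 2. WT replicate 1 was the lowest of the 4 libraries for 29 of the 36 histone genes, against 35.2% of all tested features. It lay below WT replicate 2 for 31 of them, against 53.1%. K36M replicate 1 lay below K36M replicate 2 for 32 of the 36, against 64.4%. Without WT replicate 1, 14 of 36 genes lay above 0, against 41.8% of all tested features. The medians were then -0.14 for replication-dependent, -0.29 for variant and -0.38 for linker genes, against -0.12 over all tested features. Without K36M replicate 2, 18 of 36 genes lay above 0, against 38.2%, and the medians were 0.02, 0.23 and -0.18, against -0.15. With WT replicate 2 left out 34 of 36 lay above 0, against 49.8%, and the medians were 0.96, 0.93 and 0.54. With K36M replicate 1 left out it was again 34 of 36, against 52.9%, and the medians were 0.77, 0.62 and 0.39. Between replicate 1 libraries the medians were 0.66, 0.81 and 0.14, and between replicate 2 libraries 0.19, 0.03 and -0.07. WT replicate 1 also stood apart over all tested features, with a Pearson r across genes of 0.821 to 0.834 to the other libraries, which reached 0.937 to 0.95 among themselves. Its short genes read low. Over all tested features spanning 600 to 999 bp, its log2 value was lower than the mean of the other 3 libraries by a median of -0.75, and over those of 3000 bp or more it was higher by a median of 0.39. The histone genes span 644 to 2991 bp, with a median of 963.5 bp against 2365 bp over all tested features (RefSeq spans of TAIR10.1). With each library's trend on gene length removed, 20 of 36 histone genes lay above 0, against 44.4% of all tested features, and the medians were 0.00 for replication-dependent, 0.15 for variant and -0.02 for linker genes.

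**Figure D1:**
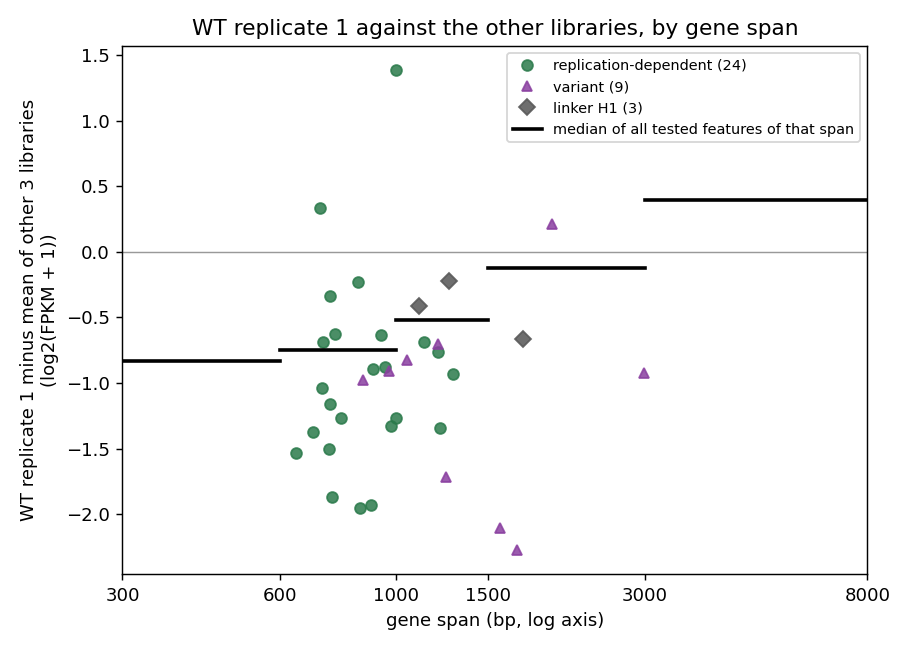
Each point is a histone gene, placed by its gene span in bp (log axis) and by the log2(FPKM + 1) of WT replicate 1 minus the mean of the other 3 libraries. Black lines give the median of all tested features in 5 bins of span, from -0.83 under 600 bp to 0.39 at 3000 bp or more; most histone genes lie below 0, and the H2A.Z genes lie far below the line of their span.

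The files give no read counts, so the depth per library is unknown. Precision comes from the spread between 2 libraries, moderated by limma over all tested features. The most abundant feature, AT2G01021, held 1.39% and 34.6% of the library's FPKM sum in WT and 9.01% and 19.6% in K36M. FPKM sums without it ranged from 756076 to 1406620 over the 4 libraries. Leaf marker genes were abundant in every library, with RBCS1A at 21083 to 49053 FPKM. Of these 6 markers 5 were lowest in WT replicate 1 and all 6 highest in WT replicate 2, and they summed to 52630 and 132375 FPKM in WT against 61472 and 76376 FPKM in K36M. The sperm histone gene HTR10 was listed at 0 in all 4 libraries. The 7 markers of dividing cells and meristem were all lowest in WT replicate 1, and their summed level was 17.8 and 59.0 FPKM in WT against 65.6 and 86.8 FPKM in K36M. In 4 of the 7 both K36M libraries lay above both WT libraries, as in 12.1% of all tested features. KNOLLE, one of these 4, had 7.13 and 10.5 FPKM in WT against 15.5 and 35.3 FPKM in K36M. The groups overlapped in the other 3, STM among them. STM, a meristem gene, was listed at 0 in WT replicate 1 and had 9.73, 10.6 and 7.89 FPKM in WT replicate 2 and K36M replicates 1 and 2. Of the 5 flower markers, 4 were tested. Both K36M libraries lay above both WT libraries in these 4, as in 12.1% of all tested features. Among them AP3 was at 0 in each WT library and at 2.69 and 3.02 FPKM in K36M. The marker not tested, AG, overlapped between the groups, with 1.04 and 0.177 FPKM in WT against 0.794 and 0.860 FPKM in K36M. The summed level of the flower markers was 1.48 and 2.07 FPKM in WT against 10.6 and 18.2 FPKM in K36M. The 3 epidermis markers were lowest in WT replicate 1 and highest in WT replicate 2, and summed to 113 and 600 FPKM in WT against 446 and 371 FPKM in K36M. Most of that range was PDF1, with 4.81 and 404 FPKM in WT against 313 and 213 FPKM in K36M, while FDH had 95.0 and 176 FPKM and 116 and 138 FPKM. The part of these cell types in the histone values was not tested. In bulk RNA, fewer cells of a type and less RNA per cell cannot be told apart.

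**Figure D2:**
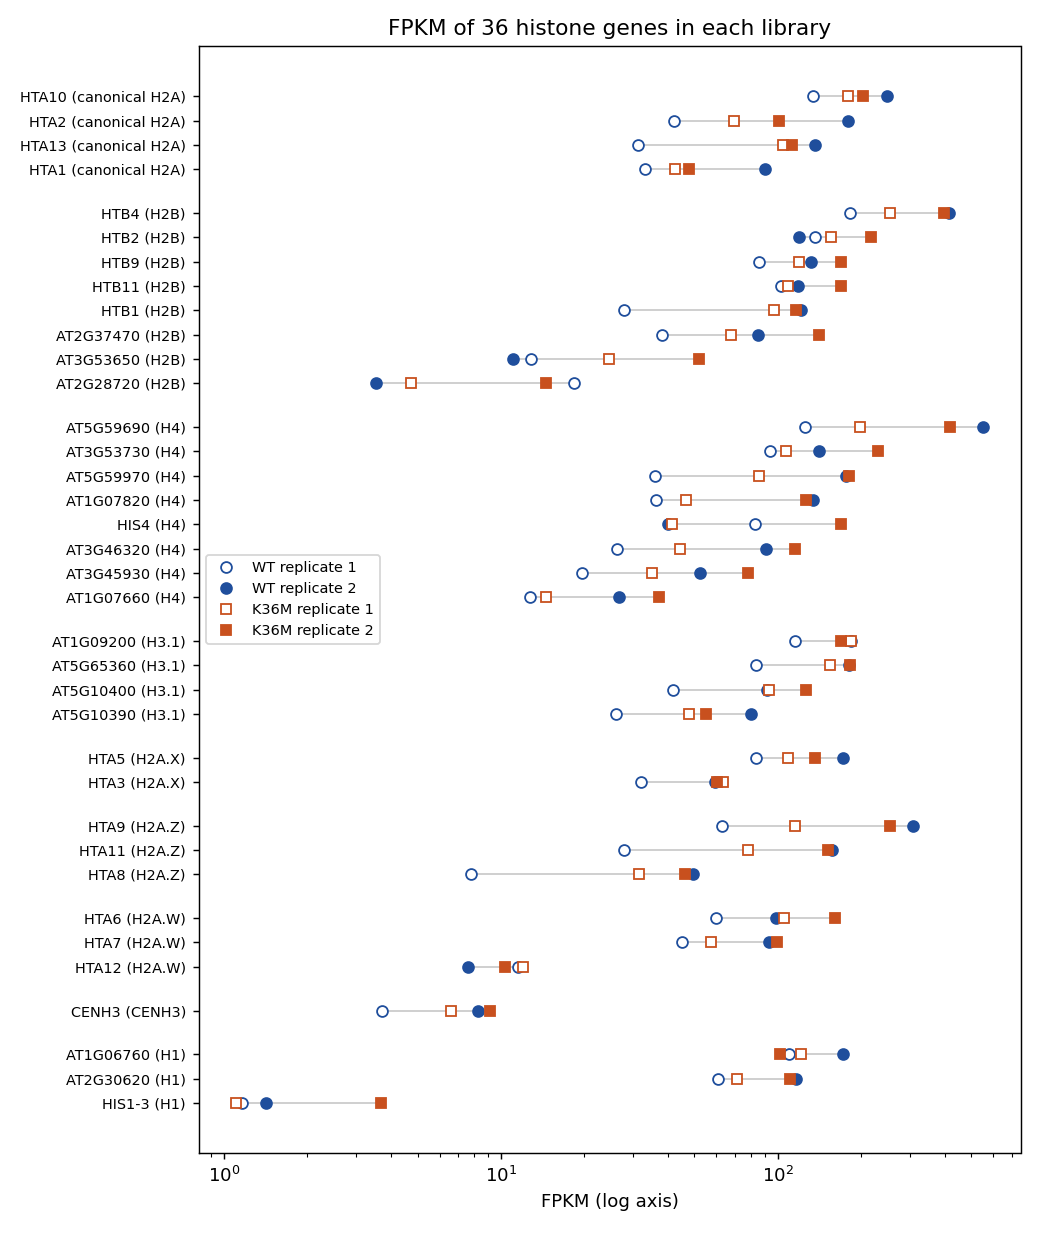
FPKM (log axis) of each of the 36 histone genes, by family, with open symbols for replicate 1, filled symbols for replicate 2, circles for WT and squares for K36M. WT replicate 1 is the lowest point for 29 of the 36 genes, and WT replicate 2 or K36M replicate 2 is the highest for 33.

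Of the 4 canonical H2A genes, which supply most H2A at replication, 2 had a log2 fold change above 0 and 2 below. HTA10, the most abundant of them, had 133 and 247 FPKM in WT against 180 and 203 FPKM in K36M, so both K36M values lay between the WT values. HTA1 is known from its role in the transformation of roots by Agrobacterium. It had 33.1 and 89.9 FPKM in WT against 42.4 and 47.9 FPKM in K36M, giving a log2 fold change of -0.27 ± 0.59 (SE; adjusted p = 1 by limma). HTA13 had 31.3 and 136 FPKM in WT against 104 and 112 FPKM in K36M. Its fold change of 0.72 ± 0.75 (SE; limma adjusted p = 1) was the largest of the family and came from the low value of WT replicate 1. HTA2 had 42.1 and 179 FPKM in WT against 69.5 and 101 FPKM in K36M, again inside the WT range. In all 4 genes WT replicate 1 was the lowest library and WT replicate 2 the highest. The family's median was 0.57 for the replicate 1 and -0.55 for the replicate 2 libraries.

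Among the 8 H2B genes, the one with the greatest difference was AT3G53650. It had 12.8 and 11.0 FPKM in WT against 24.5 and 52.1 FPKM in K36M. Both K36M values exceeded both WT values, and the log2 fold change was 1.51 ± 0.50 (SE; limma adjusted p = 1). By replicate number it was 0.88 and 2.14. The fold change was 1.17 with the gene length trend removed, 1.61 without WT replicate 1 and 0.98 without K36M replicate 2, the library with the high value. AT3G53650 is a minor H2B gene, with 2.13% and 1.097% of the summed H2B FPKM in WT and 2.95% and 4.07% in K36M. HTB4, the most abundant H2B gene, had 182 and 415 FPKM in WT against 254 and 399 FPKM in K36M, and its K36M values lay inside the WT range. HTB1 had 27.9 and 121 FPKM in WT against 96.5 and 116 FPKM in K36M, giving a log2 fold change of 0.85 ± 0.75 (SE; adjusted p = 1 by limma) that was 1.75 in the replicate 1 and -0.05 in the replicate 2 libraries. HTB2, picked after its values were seen because its groups did not overlap, had 136 and 119 FPKM in WT against 156 and 217 FPKM in K36M. HTB9 had 85.4 and 132 FPKM in WT against 119 and 169 FPKM in K36M, and HTB11 had 103 and 119 FPKM and 108 and 169 FPKM. AT2G37470 had 38.2 and 84.6 FPKM in WT against 67.7 and 140 FPKM in K36M. These last 3 genes overlapped between the groups, with K36M replicate 2 the highest library in each. All 8 H2B genes were higher in K36M replicate 2 than in K36M replicate 1, as 64.4% of all tested features were.

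The 8 H4 genes varied more between the libraries of a group than between the groups. Their summed FPKM was 433 and 1213 in WT and 572 and 1355 in K36M, so replicate 2 was more than 2-fold above replicate 1 in both groups. The median difference of replicate 1 minus replicate 2 was -1.56 in WT and -1.21 in K36M on the log2 scale, against -0.08 and -0.17 over all tested features. The groups overlapped for all 8 H4 genes, as they did for 12169 of the 17738 tested features. AT5G59690, the most abundant, had 125 and 551 FPKM in WT against 197 and 419 FPKM in K36M, giving a log2 fold change of 0.13 ± 0.86 (SE; adjusted p = 1 by limma). AT3G45930 had 19.6 and 52.3 FPKM in WT against 35.3 and 77.8 FPKM in K36M, the greatest fold change of the family at 0.69 ± 0.66 (SE; limma adjusted p = 1). The difference was 0.82 between replicate 1 and 0.56 between replicate 2 libraries. The fold change of AT3G45930 was 0.0038 without WT replicate 1, 0.13 without K36M replicate 2 and 0.25 with the gene length trend removed. It was 1.38 without WT replicate 2 and 1.25 without K36M replicate 1. AT5G59970 had 35.9 and 177 FPKM in WT against 85.3 and 180 FPKM in K36M. The replicate 2 values of this gene were nearly equal, and its difference came from the replicate 1 libraries. AT3G53730 had 93.9 and 141 FPKM in WT against 107 and 230 FPKM in K36M, and AT3G46320 had 26.2 and 90.5 FPKM and 44.4 and 115 FPKM. AT1G07820 had 36.3 and 134 FPKM in WT against 46.6 and 127 FPKM in K36M, and AT1G07660, the lowest H4 gene, had 12.7 and 26.8 FPKM and 14.6 and 37.3 FPKM. In 7 of the 8 genes WT replicate 1 was the lowest library.

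HIS4 was the exception among the H4 genes and is named after its values were seen. It had 83.0 and 40.2 FPKM in WT against 41.5 and 168 FPKM in K36M, so WT replicate 1 and K36M replicate 2 were the high libraries. Its share of the summed H4 FPKM was 19.2% and 3.31% in WT and 7.26% and 12.4% in K36M. The H2B gene AT2G28720, with 1 protein-coding gene between it and HIS4 in the RefSeq order, had the same 2 libraries high. It had 18.3 and 3.54 FPKM in WT against 4.72 and 14.5 FPKM in K36M. The K36M value was thus lower in replicate 1 and higher in replicate 2 for both genes, by -0.98 and 2.04 for HIS4 and by -1.75 and 1.77 for AT2G28720 on the log2 scale. These were the only 2 of the 36 genes with WT replicate 1 and K36M replicate 2 both above the other 2 libraries, as in 18.3% of all tested features. Histone genes of different families often lie close together, and 10 pairs of the 36 had at most 10 protein-coding genes between them. The full order of the 4 libraries was the same in 4 of these 10 pairs and differed in 6, and it was the same in 23.5% of all 630 pairs of the 36 genes. HTB1 and the H4 gene AT1G07820, with 2 genes between them, were a pair with the same order, with WT replicate 2 highest and WT replicate 1 lowest. The other 3 pairs were those among HTB9, HTB11 and the H4 gene AT3G45930, with K36M replicate 2 highest. Among the pairs that differed were AT3G53650 and its H4 neighbour AT3G53730, as WT replicate 2 was the lowest library for the first and the second highest for the other. HIS4 and AT2G28720 differed too, as K36M replicate 2 was the highest library for HIS4 and WT replicate 1 for AT2G28720.

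**Figure D3:**
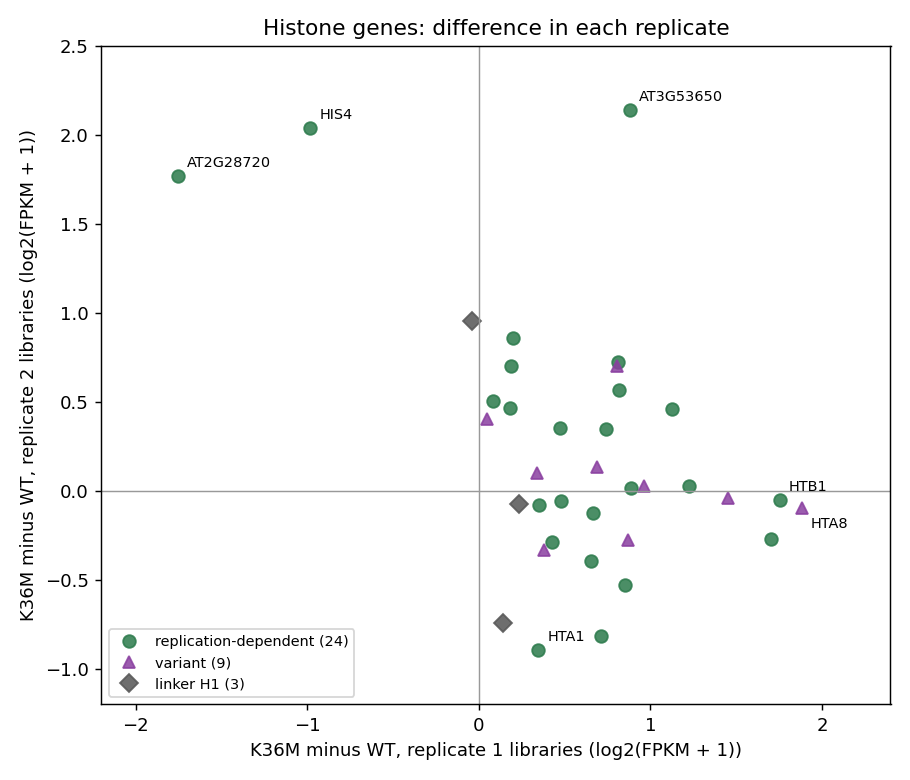
Difference of K36M minus WT in log2(FPKM + 1) between replicate 1 libraries (horizontal) and between replicate 2 libraries (vertical) for each of the 36 histone genes. Libraries were matched by number only. Most points lie to the right of 0 and spread around 0 vertically; AT3G53650 is far above 0 in replicate 2, at 2.14. Left of 0 and above it lie HIS4, at -0.98 and 2.04, AT2G28720, at -1.75 and 1.77, and HIS1-3, close to the vertical line at -0.040 and 0.95.

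The 4 H3.1 genes, which encode the replication-dependent H3, were all lowest in WT replicate 1. AT1G09200 had 115 and 184 FPKM in WT against 184 and 169 FPKM in K36M, and AT5G65360 had 83.3 and 181 FPKM and 155 and 182 FPKM. In both genes the K36M values and WT replicate 2 lay close together. AT5G10400 had 42.0 and 91.4 FPKM in WT against 92.8 and 126 FPKM in K36M, so that both K36M values exceeded both WT values, the lower one narrowly. Its log2 fold change was 0.79 ± 0.56 (SE; limma adjusted p = 1), with 1.13 between replicate 1 and 0.46 between replicate 2 libraries. With single libraries left out the fold change of AT5G10400 ran from 0.24 without WT replicate 1 to 1.35 without WT replicate 2. Its direct neighbour AT5G10390 had 26.0 and 80.1 FPKM in WT against 47.7 and 55.1 FPKM in K36M, both inside the WT range. Another H3.1 gene, AT3G27360, is joined with a second gene under 1 value in the table and was not analysed here.

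Set against the H3.3 genes HTR4, HTR5 and HTR8, the 4 H3.1 genes held 25.5% and 28.1% of the summed H3 FPKM in WT and 30.1% and 29.8% in K36M. The share was higher in both K36M libraries, by a mean of 3.17 percentage points, and by 1.89 points without WT replicate 1. With the gene length trend removed the difference was -0.71 percentage points, in the other direction. HTR5, the gene of the insertion, makes up part of the H3.3 level in both groups, at 322 and 711 FPKM in WT against 391 and 582 FPKM in K36M. CENH3, the H3 of centromeres, had 3.72 and 8.23 FPKM in WT against 6.61 and 9.14 FPKM in K36M. Its log2 fold change was 0.41 ± 0.47 (SE; limma adjusted p = 1), and its groups overlapped. It held between 0.355% and 0.512% of the H3 FPKM in any library.

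H2A.Z replaces canonical H2A beside transcription start sites and in the bodies of responsive genes, and its 3 genes showed the widest spread between libraries among the variants. HTA9, the most abundant, had 62.6 and 308 FPKM in WT against 115 and 254 FPKM in K36M. HTA11 had 27.8 and 157 FPKM in WT against 78.1 and 152 FPKM in K36M, and HTA8 had 7.79 and 49.4 FPKM and 31.4 and 46.1 FPKM. All K36M values of the 3 genes lay inside the WT range. HTA8 had the largest fold change of the variants, 0.89 ± 0.84 (SE; limma adjusted p = 1), made up of 1.88 between replicate 1 and -0.10 between replicate 2 libraries. WT replicate 1 lay below the mean of the other libraries by a median of -2.10 log2 units over the H2A.Z genes, against -0.12 over all tested features spanning 1500 to 2999 bp and -0.52 over those of 1000 to 1499 bp. H2A.Z held 17.2% and 32.2% of the summed H2A FPKM in WT and 23.2% and 32.7% in K36M. The difference of the means was 3.24 percentage points. It was -4.23 without WT replicate 1 and -1.47 without K36M replicate 2, and 10.7 without WT replicate 2 and 7.95 without K36M replicate 1.

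H2A.X is the variant that is phosphorylated at DNA breaks. HTA5 had 83.2 and 172 FPKM in WT against 109 and 136 FPKM in K36M, inside the WT range. HTA3 had 32.1 and 59.2 FPKM in WT against 63.5 and 60.3 FPKM in K36M. The groups did not overlap, but the 3 higher values lay close together, and the log2 fold change was 0.49 ± 0.49 (SE; limma adjusted p = 1). HTA3 shares 259 bp of its span with a neighbouring protein-coding gene, one of 7 histone genes with such an overlap, and whether the counting used strand is not given in the sources used here.

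H2A.W is the variant of plant heterochromatin. HTA6 had 59.9 and 98.4 FPKM in WT against 106 and 161 FPKM in K36M, with no overlap between the groups. Its log2 fold change was 0.76 ± 0.53 (SE; limma adjusted p = 1), and it was 0.38 with the gene length trend removed. By replicate number it was 0.81 and 0.70. With single libraries left out it ran from 0.40 without WT replicate 1 to 1.11 without WT replicate 2. HTA7 had 45.1 and 92.6 FPKM in WT against 57.3 and 99.3 FPKM in K36M, with overlap. HTA12, the lowest H2A gene, had 11.6 and 7.61 FPKM in WT against 11.96 and 10.4 FPKM in K36M, and it was the only H2A gene in which WT replicate 1 was not the lowest library. Its span shares 522 bp with that of AT5G02570. H2A.W held 20.4% and 12.4% of the summed H2A FPKM in WT and 18.1% and 19.6% in K36M. Canonical H2A held 42.1% and 40.9% in WT and 40.9% and 33.6% in K36M, a difference of -4.25 percentage points that was -0.59 without K36M replicate 2 and -7.91 without K36M replicate 1.

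**Figure D4:**
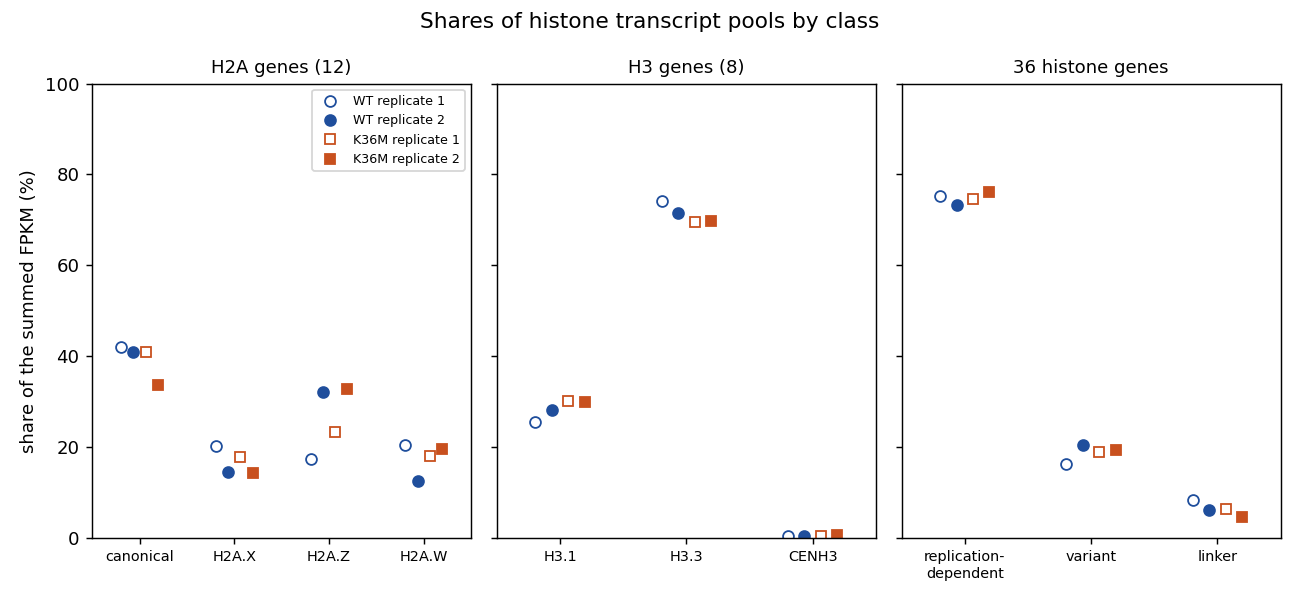
Share in percent of the summed FPKM in each library, for the classes of the H2A genes, of the H3 genes and of the 36 histone genes; circles are WT and squares K36M, open for replicate 1 and filled for replicate 2. Replication-dependent genes hold between 73.3% and 76.0% of the 36 in every library, while the H2A.Z share of H2A ranges from 17.2% to 32.7%.

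Replication-dependent genes as a whole held 75.3% and 73.3% of the summed FPKM of the 36 genes in WT and 74.7% and 76.0% in K36M. Variants held 16.3% and 20.5% in WT and 19.0% and 19.4% in K36M, and linker genes 8.39% and 6.21% in WT and 6.36% and 4.52% in K36M. The replication-dependent share of the 2 groups overlapped, with a mean difference of 1.05 percentage points that was -0.58 with the gene length trend removed and ran from 0.052 without WT replicate 2 to 2.04 without WT replicate 1. The total of the 36 genes was 2048 and 4648 FPKM in WT against 3050 and 4773 FPKM in K36M, and was more than 2-fold apart between the WT libraries. The FPKM sums of whole libraries differed as well, and as a percent of the library's sum without AT2G01021 the 36 genes held 0.2709% and 0.3304% in WT and 0.3595% and 0.4386% in K36M, so on that scale both K36M libraries lay above both WT libraries. An exact permutation test of 2 against 2 libraries cannot give a two-sided p below 0.333, so no test was made of the shares.

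The linker genes had the lowest median fold change of the 3 classes. AT1G06760 had 110 and 171 FPKM in WT against 121 and 102 FPKM in K36M, giving a log2 fold change of -0.30 ± 0.51 (SE; adjusted p = 1 by limma), and was the only member with K36M replicate 2 as the lowest library. AT2G30620 had 60.7 and 116 FPKM in WT against 71.5 and 110 FPKM in K36M, inside the WT range. HIS1-3, the linker histone known for induction by drought, had 1.16 and 1.42 FPKM in WT against 1.104 and 3.69 FPKM in K36M. It was the least abundant of the 36 genes, and K36M replicate 2 alone was high.

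Genes that work with the histones were described from lists of S phase genes, histone chaperones, partners of the variants and endocycle genes. None of the 40 tested genes of these lists was called by limma, and none had an unadjusted p under 0.05. The 15 S phase genes had a median log2 fold change of 0.15, with 10 above 0. PCNA2, a sliding clamp of DNA polymerase, had 13.5 and 20.2 FPKM in WT against 22.6 and 36.9 FPKM in K36M. It was the only S phase gene without overlap between the groups, which overlapped for 12169 of the 17738 tested features. PCNA1 had 10.7 and 23.5 FPKM in WT against 25.7 and 23.1 FPKM in K36M, and CDT1A, a licensing factor, had 4.01 and 1.74 FPKM and 6.44 and 3.69 FPKM. MCM3, a subunit of the replicative helicase, had 7.04 and 2.46 FPKM in WT against 7.19 and 6.42 FPKM in K36M. WT replicate 1 was the lowest library for 7 of these 15 genes, against 20 of the 24 replication-dependent histone genes and 35.2% of all tested features. The median span of the S phase list was 3951 bp, against 850 bp for the replication-dependent genes. The 7 markers of dividing cells and meristem, which span 1476 to 3482 bp, were all lowest in WT replicate 1. The part of gene length in this difference was not tested.

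Among 14 chaperone genes 11 lay above 0, with a median of 0.16. ASF1B, a chaperone of H3 and H4, had 5.95 and 12.1 FPKM in WT against 14.4 and 22.1 FPKM in K36M, giving a log2 fold change of 0.98 ± 0.49 (SE; adjusted p = 1 by limma). ASF1A had 9.40 and 19.0 FPKM in WT against 18.0 and 20.7 FPKM in K36M, and AT4G37210 had 10.1 and 13.5 FPKM and 15.1 and 18.3 FPKM. SPT16, a subunit of the FACT complex, had 12.2 and 10.4 FPKM in WT against 6.17 and 6.05 FPKM in K36M, giving a log2 fold change of -0.78 ± 0.37 (SE; adjusted p = 1 by limma). The other FACT subunit, SSRP1, had 13.2 and 12.8 FPKM in WT against 14.5 and 15.4 FPKM in K36M. The NAP1 and NRP chaperones, which carry H2A and H2B, had the same 2 libraries high as HIS4 and AT2G28720 and are named after their values were seen. NRP1 had 73.1 and 28.3 FPKM in WT against 29.9 and 61.3 FPKM in K36M, and NAP1;2 had 75.5 and 39.4 FPKM and 50.2 and 86.2 FPKM. WT replicate 1 and K36M replicate 2 were both above the other libraries in 6 of the 14 chaperone genes, FAS1, NRP1, NRP2, NAP1;1, NAP1;2 and NAP1;3, against 18.3% of all tested features. These 6 genes span 2476 to 4696 bp.

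Of 9 partners of the variants, 7 were tested, with 2 above 0 and a median of -0.31. ATXR5, which methylates H3.1, had 3.94 and 3.46 FPKM in WT against 2.80 and 2.56 FPKM in K36M, below both WT values. ATXR6 had 1.13 and 1.85 FPKM in WT against 1.71 and 0.450 FPKM in K36M. PIE1, a subunit of the complex that inserts H2A.Z, had 2.88 and 0.725 FPKM in WT against 0.964 and 1.13 FPKM in K36M. ARP6, of the same complex, had 9.55 and 17.5 FPKM in WT against 10.4 and 9.99 FPKM in K36M, and the groups overlapped for both genes. The 4 endocycle genes had a median of 0.12, with 2 above 0. The groups overlapped in all 4, as they did for 12169 of the 17738 tested features. SMR1, an inhibitor of cyclin-dependent kinases, had 42.7 and 82.5 FPKM in WT against 78.0 and 99.6 FPKM in K36M, and its relative SIM had 7.96 and 20.8 FPKM and 19.2 and 12.6 FPKM. CCS52A1 and CCS52A2, activators of the anaphase-promoting complex, had log2 fold changes of -0.20 ± 0.58 and 0.00 ± 0.44 (SE; limma adjusted p = 1 each).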

How the data were processed

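Expression was deposited as FPKM, per the labels, in a long table without a header that has a line for each gene and library. Libraries were made with a stranded mRNA kit, per the labels' protocols. TAIR10, Bowtie2 and bedtools are named, without roles, in the submitters' processing notes, and the program that made the FPKM is not given in the sources used here. Names and gene spans came from RefSeq (TAIR10.1), with a span for all 36 members and 17482 of 17738 tested features. No coordinates are printed, because the builds differ. Several genes were joined under 1 value in 233 features, and all 271 plastid and mitochondrial features were listed at 0, so a 0 is not a measure of absence.

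The test used limma 3.58.1 in R 4.3.3 (mean-variance trend, two-sided) on log2(FPKM + 1) for features averaging at least 1 FPKM, with Benjamini-Hochberg adjustment over all tested features and a threshold of 0.05. The step was tested on simulated data. P-values rest on the spread between 2 libraries per group, moderated by limma toward a trend estimated over all tested features. The gene length trend was taken out with loess on log2 span in each library. Tables and figures used Python 3.11.15, pandas 2.3.3 and matplotlib 3.10.9. Members and lists were chosen with earlier results of these data known, so no p was adjusted over them alone. Values per library are given for CENH3, the H3.1, H1 and variant H2A genes, and in the other families for the most abundant gene and the 2 with the greatest change. Of each further list up to 4 genes with the greatest change were taken, called genes first. Other genes were chosen after their values were seen. H3K36me3 ChIP libraries, 5 in number, were not analysed here.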

Additional observations from a re-analysis of the deposited data

How the results depend on the processing

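With 2 libraries per group and no read counts, a gene that was not called may still differ, also by several-fold. No histone gene was called under any of the 16 alternatives. In those that keep all 4 libraries, at most 2 of 36 had an unadjusted limma p under 0.05. The 2 were seen with equal sums without the most abundant feature, where 517 of 17738 tested features had such a p. Without single libraries the median ran from -0.14 to 0.96 for replication-dependent, -0.29 to 0.93 for variant and -0.38 to 0.54 for linker genes. Values per setting were taken for 25 histone genes and 16 others chosen by rule. With the gene length trend removed, with or without a replicate block, 13 of all 36 histone genes changed sign. Among the genes chosen by rule these were HTA10 -0.28, HTB4 -0.017, AT5G59690 -0.29, HTA5 -0.23, HTA7 -0.094, AT1G09200 -0.14, AT5G10390 -0.26, AT2G30620 -0.024, PIE1 0.13, SIM -0.16 and CCS52A2 0.064. The H3.1 share of H3 then differed by -0.71 and the replication-dependent share by -0.58 percentage points. CCS52A2, near 0, also changed sign with a pseudocount of 0.1 (0.018), median-of-ratios scaling (0.030) and equal sums without the most abundant feature (0.022). The cause of these changes was not tested.

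Of all 36 histone genes 19 changed sign without WT replicate 1, 15 without K36M replicate 2, 5 without WT replicate 2 and 1 without K36M replicate 1. A pseudocount of 5, quantile normalization or equal sums changed the sign of at most 2. Those chosen by rule, with the other genes so chosen, had these ranges over the 4 omissions: HTA10 -0.37 to 0.51, HTA13 -0.33 to 1.76, HTA1 -0.98 to 0.43, HTB4 -0.38 to 0.81, HTB1 -0.19 to 1.89, AT5G59690 -0.94 to 1.19, AT5G59970 -0.51 to 1.76, HTA5 -0.49 to 0.54, HTA8 -0.37 to 2.15, HTA9 -0.84 to 1.44, HTA11 -0.52 to 1.93, HTA7 -0.29 to 0.73, HTA12 -0.050 to 0.50, AT5G65360 -0.10 to 1.00, AT1G09200 -0.064 to 0.61, AT5G10390 -0.63 to 0.95, CENH3 -0.071 to 0.90, AT1G06760 -0.62 to 0.017, AT2G30620 -0.38 to 0.54, HIS1-3 -0.12 to 1.03, MCM3 -0.045 to 1.17, PIE1 -0.92 to 0.25, ARP6 -0.73 to 0.084, ATXR6 -0.76 to 0.14, SIM -0.39 to 0.89, CCS52A1 -0.97 to 0.57 and CCS52A2 -0.27 to 0.27. Fits that leave a group with 1 library assume that it varies like the other group.

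Over all tested features, limma called 5 higher and 2 lower. It called 0 and 0 with a replicate block, with no filter, with a pseudocount of 5 and without either K36M library, 1 and 12 without WT replicate 1, and 192 and 510 without WT replicate 2. The replicate numbers were not taken as pairing the libraries: the deviations of same-numbered libraries from their group means correlated at 0.128 across genes, which share the libraries. Among the 36 histone genes, replicate 1 lay below replicate 2 for 31 in WT and for 32 in K36M. The median log2 differences were -1.03 and -0.61, against -0.08 and -0.17 over all tested features. The replicate block left the medians at 0.43, 0.41 and 0.08 and called no histone gene.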
